A study of Mus musculus with 12 samples.

Results

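The clustered protocadherin genes of the mouse were followed in RNA sequencing data from the brain cortex after binge-like drinking. They were taken as the gene symbols that start with Pcdha, Pcdhb, Pcdhga, Pcdhgb or Pcdhgc and a number, or with Pcdhac and a number. This rule found 57 of the 33024 symbols counted: 12 alpha variable genes, 22 beta genes, 12 gamma A genes, 6 gamma B genes and 5 C-type genes (Pcdhac1, Pcdhac2, Pcdhgc3, Pcdhgc4 and Pcdhgc5). All 57 lie on chromosome 18 of the GRCm39 build, at chr18:37063237-37975014, a stretch of 912 kb in the Gencode M39 annotation. The alpha genes come first (from 37063237 to 37320716), then the beta genes (37397991 to 37657532), then the gamma genes (37794846 to 37975014).

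Clustered protocadherins are cell adhesion molecules of the neuronal surface that bind their own kind on a neighbouring cell. Each variable exon has its own promoter, and a single neuron uses only a few of them, so that the set of isoforms gives the cell an identity by which its branches recognise and avoid each other. In the alpha and gamma clusters a variable exon is spliced to constant exons shared by the whole cluster, whereas beta genes have no constant exons. Promoter choice depends on CTCF, cohesin, DNA methylation and the repressor SMCHD1, while the C-type promoters are used more broadly among neurons than the others.

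The cortex came from 12 wild-type C57BL/6 mice of the abstinence arm (Arm #2) of a two-bottle choice, drinking in the dark paradigm, in which adolescent mice chose nightly between ethanol and water and were then kept without ethanol before behavioural tests and harvest. The 5 EtOH mice had been given ethanol, and the 7 Control mice, labelled as vehicle, had been given water in both bottles; sex is not given in the sources used here. The comparison asks which transcripts still differed after abstinence. Each library is one mouse in the labels, and p-values measure the spread between these mice.

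Total counts ranged from 31768079 to 42183031 per mouse, with Control 5 (40690226) and EtOH 1 (42183031) deeper than the others. Levels are given as CPM, which scales each library to the same total, with TMM factors. A count of 3, used as the detection floor, corresponded to 0.0695 to 0.0962 CPM, and it covers counting error only. The clustered protocadherins took 0.0465% to 0.0612% of all counts, with the highest shares in Control 5 and EtOH 1. Groups also differed in markers of other tissue. All 15 striatum markers were lower in EtOH, with summed levels of 1069 to 2562 CPM in the controls against 253 to 328 CPM in EtOH. Of 11 hippocampus markers, 9 were higher (109 to 151 against 241 to 335 CPM). The cortical excitatory markers moved both ways (4 of 9 higher, 2 lower) and their sums overlapped, at 2586 to 3145 against 2533 to 3098 CPM. Among 7 interneuron markers 3 were lower (934 to 1260 against 792 to 844 CPM), namely Gad1, Gad2 and Slc32a1, which striatal neurons also express. Lower too were 6 of 7 oligodendrocyte and 4 of 6 microglia markers, whereas 3 of 6 astrocyte and 0 of 5 endothelium markers were higher. Choroid plexus markers (3 of 4 tested higher) reached 985 CPM in EtOH 3, 275 CPM in EtOH 4 and 120 CPM in EtOH 1, against 7.44 to 20.8 CPM in the controls and values within that range in EtOH 2 and EtOH 5. None of the markers was at 0 in every mouse. The part of tissue composition in the results below was not tested, and in bulk tissue fewer cells of a type and less RNA per cell cannot be told apart.

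Of the 57 genes, 53 had enough counts to be tested. In EtOH mice 12 of the 53 rose at an adjusted p under 0.05 and 0 fell (edgeR quasi-likelihood test, Benjamini-Hochberg adjustment over all 16059 genes tested; 20 of the 53 had an unadjusted p under 0.05). That is 22.6% of the tested members, beside 12.1% of all genes tested that were higher, and 0 beside 11.6% of all genes that were lower. The genes that rose were Pcdhac2, Pcdhgc3 and Pcdhgc4 of the C-type; Pcdhga1, Pcdhga8 and Pcdhga11 of gamma A; Pcdhgb1 of gamma B; Pcdha9 of the alpha cluster; and Pcdhb2, Pcdhb3, Pcdhb4 and Pcdhb5 of the beta cluster. Their changes were small: the ratio of the EtOH mean to the control mean lay between 1.22 and 1.68.

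With a log2 fold change above 0.5 asked for as well, 4 members were higher (Pcdhb2, Pcdhb4, Pcdha9 and Pcdhgb1), 7.55% of those tested beside 4.2% of all genes, and 0 were lower beside 4.09% of all genes. The fold change was positive in 40 of the 53 members (75.5%), beside 50.01% of all genes, and its median was 0.13 on the log2 scale beside 7.2e-05 over all genes. Leaving out 1 mouse moved the median of the members between 0.08 (without EtOH 1) and 0.19 (without Control 5). Among the 41 members that did not pass, 28 had a positive and 13 a negative fold change, from -0.73 for Pcdha8 (adjusted p = 0.191) to 0.54 for Pcdha1 (adjusted p = 0.206). The smallest adjusted p of a member with a negative fold change was 0.108, for Pcdhb14.

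Complete separation of the groups was rare. In 2 members, Pcdhga8 and Pcdhga11, every EtOH mouse lay above every control, or 2 of 53 beside 4.84% of all genes. No member had every EtOH mouse below every control, beside 4.96% of all genes. Control 5 was the highest control for 27 of the 53 members and for 7 of the 12 that rose. How often it was highest over all genes was not counted, so a trait of these genes cannot be told from one of the library. Set beside the other 6 controls alone, a look chosen after the values were seen, 9 members separated (8 of them among the 12), beside 7.57% of all genes. Setting Control 5 apart for single genes below was likewise chosen after the values were seen. With Control 5 left out of the fit, 16 members were higher and 1, Pcdha8, was lower, while 14.3% of all 15954 genes in that fit were higher and 14.97% lower.

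**Figure D1:**
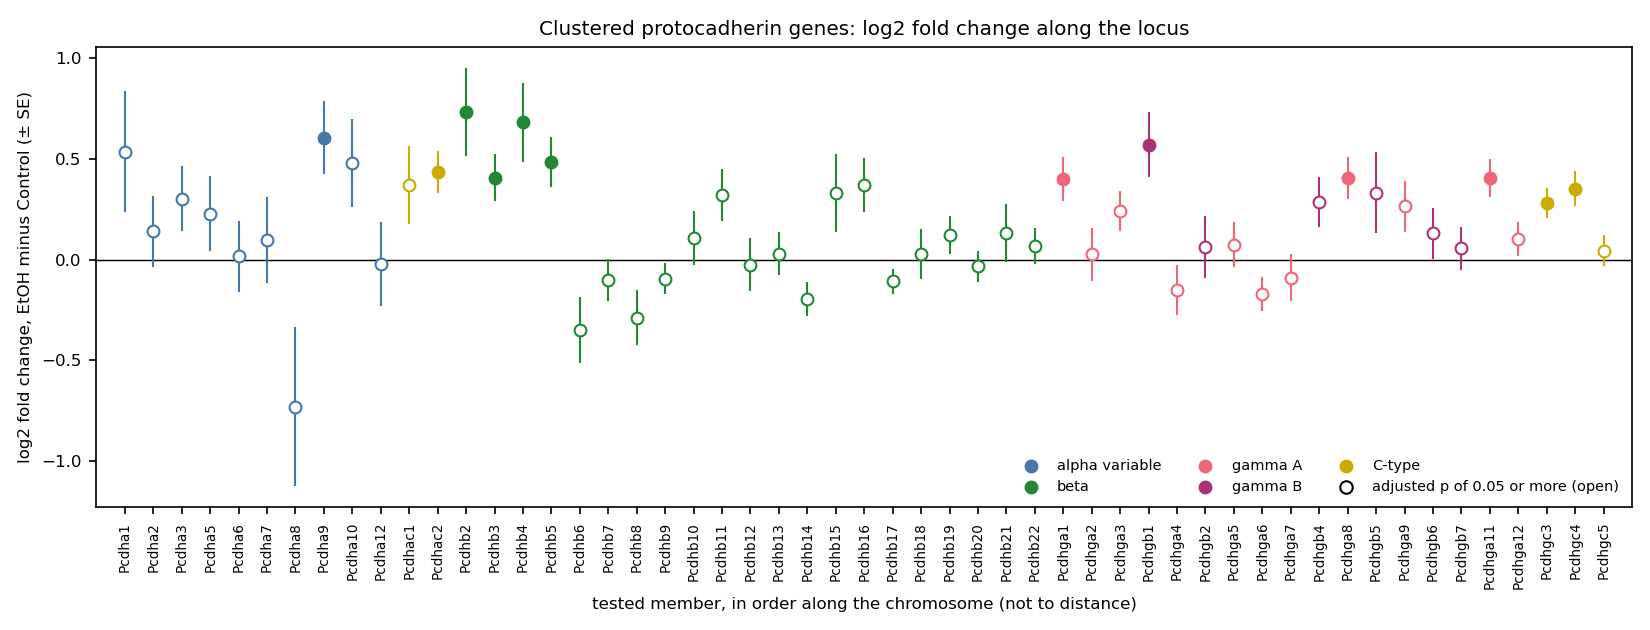
Log2 fold change (EtOH minus Control, vertical axis, bars ± SE) of the 53 tested members in their order along the chromosome (horizontal axis), coloured by subcluster; filled points have an adjusted p under 0.05. The 12 filled points all lie above 0, with 4 of them side by side from Pcdhb2 to Pcdhb5.

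C-type genes stood at the ends of the alpha and gamma clusters and carried the largest share of the counts. Of the 5, 3 rose (60%, beside 12.1% of all genes) and all 5 had a positive fold change, with a median of 0.35 on the log2 scale.

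Pcdhac2, an isoform that serotonergic axons need in order to spread evenly, was at 46.2, 38.3, 35.1, 38.3 and 42.9 CPM in EtOH 1 to EtOH 5. Its control levels ran from 24.4 through a median of 27.9 to 39.7 CPM, the last in Control 5. The other 6 controls, up to 32.8 CPM, all lay below the lowest EtOH mouse. Means were 29.7 ± 5.29 CPM (SD, n = 7) in Control and 40.2 ± 4.37 CPM (SD, n = 5) in EtOH, a log2 fold change of 0.43 (SE 0.11, adjusted p = 0.0065).

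Pcdhgc4, which cortical interneurons need to survive early postnatal life, was at 15.8, 13.8, 13.98, 14.8 and 14.3 CPM in the EtOH mice. Controls ran from 10.3 through a median of 10.5 to 13.8 CPM, so that only Control 5 and EtOH 2 met at the edge of the groups. The mean went from 11.4 ± 1.42 to 14.5 ± 0.81 CPM, with a log2 fold change of 0.35 (SE 0.09, adjusted p = 0.0074). Of the 7 interneuron markers, Slc32a1, Gad2 and Gad1, which striatal neurons also express, were lower in EtOH (log2 fold changes -0.77, -0.63 and -0.31). Sst, Pvalb and Vip were lower without passing the test (-0.23, -0.31 and -0.21, adjusted p of 0.094, 0.106 and 0.120). Lhx6 did not pass either (0.03, adjusted p = 0.776).

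Pcdhgc3, an isoform tied to dendrite branching in cortical neurons, was at 30.3, 29.2, 28.9, 32.7 and 33.0 CPM in EtOH against a lowest, median and highest control of 22.1, 24.7 and 29.6 CPM. Control 5 again lay among the EtOH mice, and the remaining controls stayed at or below 27.9 CPM. The log2 fold change was 0.28 (SE 0.07, adjusted p = 0.0106). Only 1821 of its 3381 exon bases that no other gene on the strand shares were also free of genes on the opposite strand. If strand was not used, its count could include antisense reads or lack reads over the overlap, which was not tested.

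The most abundant member, Pcdhgc5, whose protein binds GABA-A receptors, did not pass the test. It was at 129, 112, 119, 136 and 134 CPM in EtOH and at 105, 120 and 149 CPM in the lowest, median and highest control. The ranges overlapped across most of their width, with means of 122 ± 14.4 and 126 ± 10.3 CPM and a log2 fold change of 0.04 (SE 0.08, adjusted p = 0.721). Pcdhac1, the least abundant C-type gene, was at 3.89, 2.89, 2.71, 4.25 and 4.29 CPM in EtOH against 1.53, 2.91 and 4.10 CPM, with a log2 fold change of 0.37 that did not pass (SE 0.19, adjusted p = 0.178).

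In gamma A, 3 of 11 tested genes rose (27.3%, beside 12.1% of all genes), 8 had a positive fold change and the median was 0.10 on the log2 scale. The gamma proteins share one cytoplasmic tail from the constant exons and reach the cell surface on their own, apart from Pcdhgc4.

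Pcdhga11 had the smallest p among all members. Its levels in EtOH 1 to EtOH 5 were 12.7, 16.7, 12.5, 13.99 and 15.4 CPM, and those of the controls ran from 8.69 through 10.8 to 12.2 CPM. The groups did not overlap, though EtOH 3 and Control 5 were close, and the fold change was 0.41 on the log2 scale (SE 0.09, adjusted p = 0.0048). As for Pcdhgc3, antisense genes cover part of this gene, and 1256 of 2649 unshared bases were free on either strand.

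Pcdhga8 was at 12.3, 10.1, 10.02, 13.4 and 10.7 CPM in EtOH and at 6.51, 8.46 and 9.82 CPM in the lowest, median and highest control. Again every EtOH mouse lay above every control by a narrow gap, and Control 5 was not the highest control here. The log2 fold change was 0.41 (SE 0.10, adjusted p = 0.0090). Pcdhga1, the first gene of the gamma cluster, was at 6.42, 6.66, 5.96, 5.92 and 5.29 CPM against 3.85, 4.29 and 5.63 CPM, with EtOH 5 inside the control range. Its log2 fold change was 0.40 (SE 0.11, adjusted p = 0.0142).

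The most abundant gamma A genes did not pass. Pcdhga3 was at 15.9, 15.9, 19.6, 16.8 and 16.5 CPM in EtOH and at 11.9, 13.6 and 18.8 CPM in the controls (log2 fold change 0.24, adjusted p = 0.0882). Without Control 5 it passed (0.31, adjusted p = 0.00839), as it did without both deepest libraries. Pcdhga12 was at 16.2, 13.9, 14.1, 15.1 and 16.7 CPM against 12.7, 13.7 and 17.5 CPM (0.10, adjusted p = 0.395). In both, Control 5 was the highest control. Pcdhga6 leaned the other way, at 14.9, 13.4, 11.2, 14.4 and 12.5 CPM against 12.8, 15.1 and 16.3 CPM, with a log2 fold change of -0.17 (adjusted p = 0.146), and Control 5 was its lowest control. Pcdhga10 was the only member listed at 0 counts in every mouse. All of its unshared exon lies opposite an antisense gene in the annotation, and with the strand setting of the counting not known, no limit on its level was drawn from the 0.

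The 6 gamma B genes all had positive fold changes, with a median of 0.21 on the log2 scale, and 1 rose (16.7%, beside 12.1% of all genes). Pcdhgb1 was at 10.6, 11.4, 9.30, 11.04 and 11.3 CPM in EtOH, while the controls ran from 5.48 through a median of 6.19 to 11.9 CPM. The highest value of all was that of Control 5, and every other control, up to 8.32 CPM, lay below all EtOH mice. Its log2 fold change was 0.57 (SE 0.16, adjusted p = 0.0155), between means of 7.18 ± 2.28 and 10.7 ± 0.85 CPM. Outside the exon stretches annotated to other members as well, 9.63% of its 100-base windows recurred elsewhere in the exons of the members. No member had a higher percentage, and reads there cannot be placed with certainty.

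Pcdhgb6, the most abundant gamma B gene, was at 16.6, 14.5, 11.5, 12.3 and 14.6 CPM against 9.33, 12.7 and 16.1 CPM in the lowest, median and highest control (log2 fold change 0.13, adjusted p = 0.490). Pcdhgb2 was at 7.86, 8.46, 6.74, 7.22 and 6.87 CPM against 5.49, 6.39 and 10.9 CPM (0.06, adjusted p = 0.800). Both ranges overlapped. Control 5 was the highest control for both, above every EtOH mouse for Pcdhgb2 and below EtOH 1 for Pcdhgb6.

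By their medians, alpha variable genes were the least abundant and most variable subcluster, although single genes of the other subclusters were lower or more variable than some of them. Their median biological coefficient of variation was 0.224, beside 0.104 for the C-type genes and 0.105 over all genes tested. The alpha proteins need beta or gamma partners to reach the cell surface. Of 10 genes tested 1 rose (10%, beside 12.1% of all genes) and 8 had a positive fold change, with a median of 0.18 on the log2 scale.

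The gene that rose, Pcdha9, was at 4.94, 3.98, 4.05, 4.40 and 3.31 CPM in EtOH. Among the controls, 6 lay between 1.64 and 2.76 CPM and Control 5 at 4.35 CPM, inside the EtOH range. Means were 2.71 ± 0.82 and 4.14 ± 0.60 CPM, with a log2 fold change of 0.61 (SE 0.18, adjusted p = 0.0225). The call was lost without EtOH 1 (log2 fold change 0.54, adjusted p = 0.0664) and had an adjusted p of 0.00141 without Control 5 (log2 fold change 0.76).

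Pcdha12 and Pcdha5, the other alpha genes with the highest counts, did not pass. Pcdha12 was at 6.40, 3.08, 3.73, 5.98 and 5.53 CPM in EtOH and at 3.49, 4.76 and 8.11 CPM in the controls, a log2 fold change of -0.02 (adjusted p = 0.949) whose sign turned with the mice included. Pcdha5 was at 5.19, 4.39, 4.50, 4.13 and 5.02 CPM against 2.73, 3.38 and 6.62 CPM, with a log2 fold change of 0.23 (adjusted p = 0.400), or 0.40 (adjusted p = 0.0447) without Control 5. Pcdha4, Pcdha11 and the beta gene Pcdhb1 were too low to be tested, with mean levels over all mice of 0.0556, 0.0505 and 0.130 CPM, around the detection floor.

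Beta genes lack the shared tail, and in 20 of the 22 no exon base is shared with another gene on the strand, so that their counts are the least affected by shared exons. Of 21 tested, 4 rose (19.0%, beside 12.1% of all genes) and 13 had a positive fold change, with a median of 0.07 on the log2 scale. The 4 stood next to one another.

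Pcdhb2 was at 3.59, 3.64, 2.95, 3.25 and 3.19 CPM in EtOH, while 6 controls lay between 1.16 and 2.18 CPM and Control 5 at 3.66 CPM, above all EtOH mice. The log2 fold change was 0.73 (SE 0.22, adjusted p = 0.0212), the largest among the members that rose. Its means were 1.98 ± 0.82 CPM in Control and 3.32 ± 0.29 CPM in EtOH, from a mean count of 88.1 per library.

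Pcdhb3 was at 6.81, 8.09, 5.99, 7.56 and 7.72 CPM in EtOH and at 4.23, 5.51 and 6.60 CPM in the lowest, median and highest control. Here Control 5 was the lowest mouse, and EtOH 3 lay inside the control range. Means of 5.46 ± 0.84 and 7.23 ± 0.84 CPM gave a log2 fold change of 0.41 (SE 0.12, adjusted p = 0.0188).

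Pcdhb4, the least abundant of the 4, was at 3.04, 3.86, 2.71, 2.37 and 1.70 CPM against 1.20, 1.72 and 2.28 CPM. EtOH 5 lay below the control median and the other 4 EtOH mice above every control. The log2 fold change of 0.68 (SE 0.20, adjusted p = 0.0176) rested on a mean count of 72.9 per library. It did not pass without EtOH 2 (log2 fold change 0.52, adjusted p = 0.0597).

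Pcdhb5 was at 6.12, 7.37, 6.23, 5.43 and 7.24 CPM in EtOH and at 3.86, 4.23 and 6.06 CPM in the lowest, median and highest control. Only EtOH 4 fell inside the control range, below Control 3. The log2 fold change was 0.49 (SE 0.12, adjusted p = 0.0094).

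Directly downstream, the next 4 genes, Pcdhb6 to Pcdhb9, all had negative fold changes, from -0.35 to -0.09 on the log2 scale (median -0.19), and none passed (smallest adjusted p 0.130). The median of the 4 genes before them was 0.58. Further on, from Pcdhb10 to Pcdhb22, 9 genes had positive and 4 negative fold changes, none passed, and the median was 0.07. These blocks were drawn after the values were seen, and their difference was not tested. Pcdhb16 came nearest to the threshold (log2 fold change 0.37, adjusted p = 0.0520).

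The 3 most abundant beta genes did not pass. Pcdhb17 was at 14.9, 14.5, 14.3, 15.7 and 15.7 CPM in EtOH and at 15.6, 16.3 and 17.0 CPM in the controls, a log2 fold change of -0.11 (SE 0.06, adjusted p = 0.204). Pcdhb20 was at 11.98, 10.9, 10.8, 10.9 and 12.3 CPM against 10.04, 11.8 and 12.5 CPM (-0.03, adjusted p = 0.790). Pcdhb22, the last beta gene, was at 13.98, 13.9, 11.3, 11.8 and 11.3 CPM against 10.8, 11.8 and 14.1 CPM (0.07, adjusted p = 0.611). In Pcdhb20 and Pcdhb22 the EtOH mice lay wholly within the control range.

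**Figure D2:**
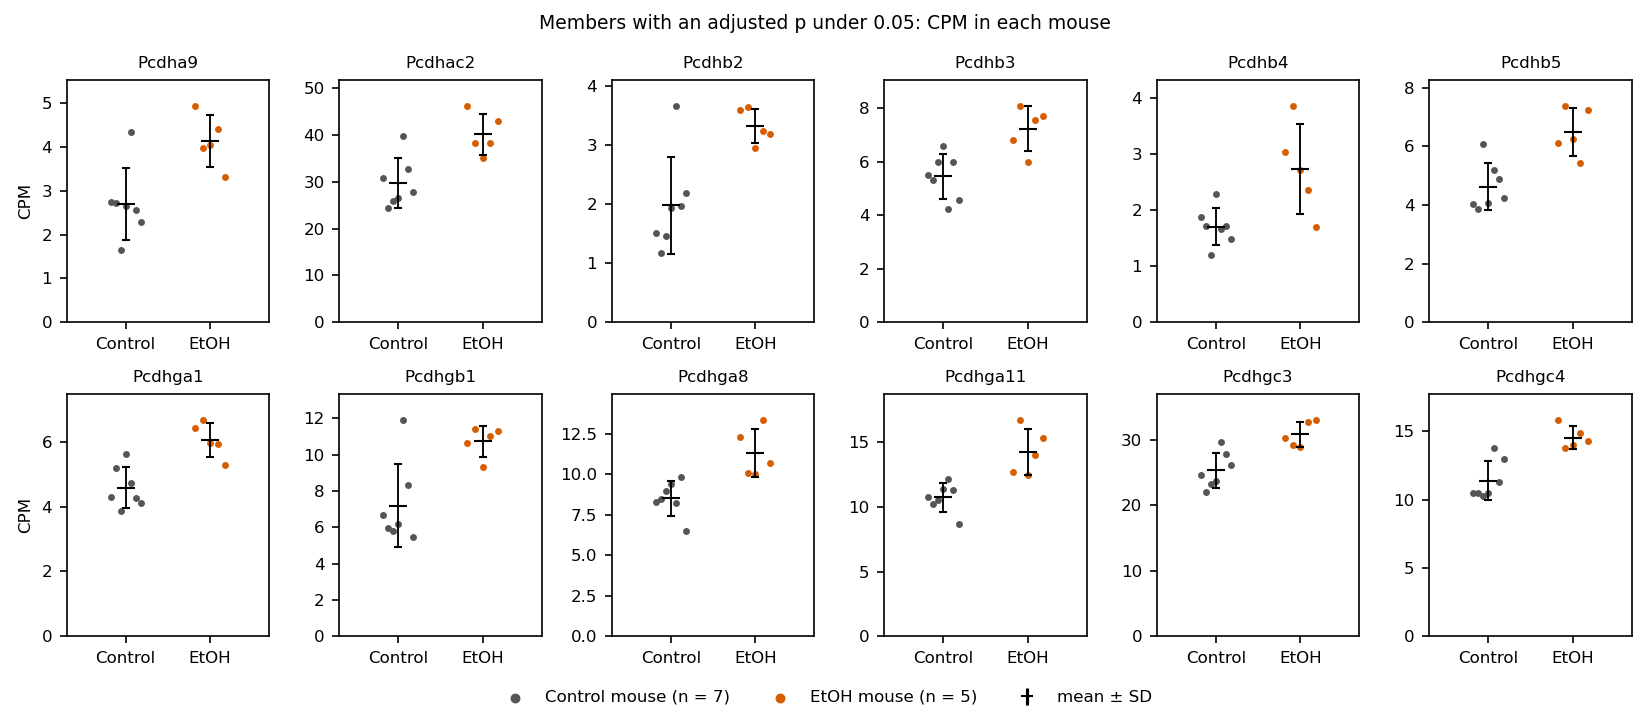
CPM of the 12 members with an adjusted p under 0.05 in each mouse (grey, 7 Control; orange, 5 EtOH; black, mean ± SD), with a linear axis from 0 in every panel. Pcdhga8 and Pcdhga11 show no overlap, and in Pcdha9, Pcdhac2, Pcdhb2, Pcdhgb1, Pcdhgc3 and Pcdhgc4 a single control, Control 5, reaches into the EtOH range.

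Among the 12 genes that rose, EtOH 3 was the lowest EtOH mouse for 7, and EtOH 2 was the highest for 7 and EtOH 1 for 3. EtOH 3 had the highest choroid plexus markers, and its part in these levels was not tested. Without EtOH 3 the same 12 genes passed. Along the chromosome the 12 fell into 8 runs of adjacent tested genes, of which the run Pcdhb2 to Pcdhb5 held 4, the pair Pcdhgc3 and Pcdhgc4 held 2, and the remaining 6 held 1 each.

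Compared per kb of exon that no other gene on the strand shares, 3 of the C-type genes were the most highly expressed members, with Pcdhgc5 at 26.5, Pcdhac2 at 10.8 and Pcdhgc3 at 8.17 CPM per kb as means over the 12 mice. The subcluster medians on this scale were 8.17 for C-type, 4.48 for gamma A, 2.58 for gamma B, 1.28 for beta and 0.95 for alpha variable genes. The other C-type genes were lower, with Pcdhgc4 at 3.44 CPM per kb, below the gamma A median, and Pcdhac1 at 1.22, near the beta median. These are levels, not differences, and they assume that reads in shared exons were not counted, since the alpha and gamma genes have between 8.56% and 67.8% of their annotated exon bases to themselves. Counting only bases free on either strand raised Pcdhgc3 to 15.2 and Pcdhga11 from 4.61 to 9.71 CPM per kb. Those values assume that reads over bases opposite another gene were not counted.

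**Figure D3:**
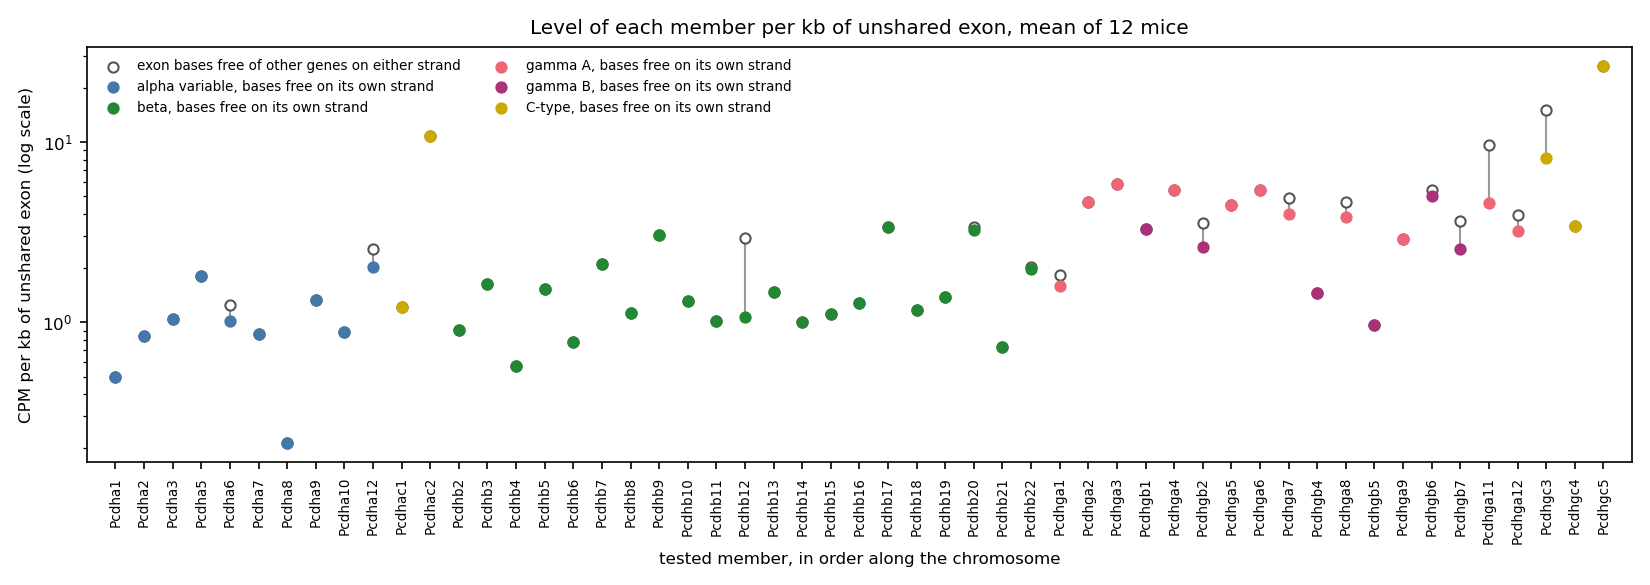
Mean CPM over the 12 mice per kb of unshared exon (log scale) for each tested member in chromosomal order; coloured points use exon bases free of other genes on the same strand, open points those free on either strand. Levels rise from alpha (median 0.95) through beta (1.28) to gamma genes (4.48 for gamma A), and Pcdhgc5 is highest at 26.5.

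Summed over each subcluster, every range of the EtOH mice overlapped that of the controls. C-type genes summed to 191 ± 23.6 CPM in Control and 215 ± 15.8 CPM in EtOH, gamma A to 122 ± 12.3 and 133 ± 4.62 CPM, and gamma B to 42.3 ± 7.53 and 49.7 ± 4.12 CPM. Beta genes summed to 133 ± 6.72 and 140 ± 5.66 CPM, and alpha variable genes to 23.8 ± 4.93 and 27.9 ± 3.45 CPM (SD, n = 7 and 5). The means were thus higher in EtOH in each subcluster, by less than or about the SD of the controls and by more than that of the EtOH mice. A sum over chosen genes was given no test. All members together summed to 512 ± 52.3 and 565 ± 27.5 CPM. Control 5, at 609 CPM, was above every EtOH mouse, of which EtOH 1 was highest at 596 CPM.

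**Figure D4:**
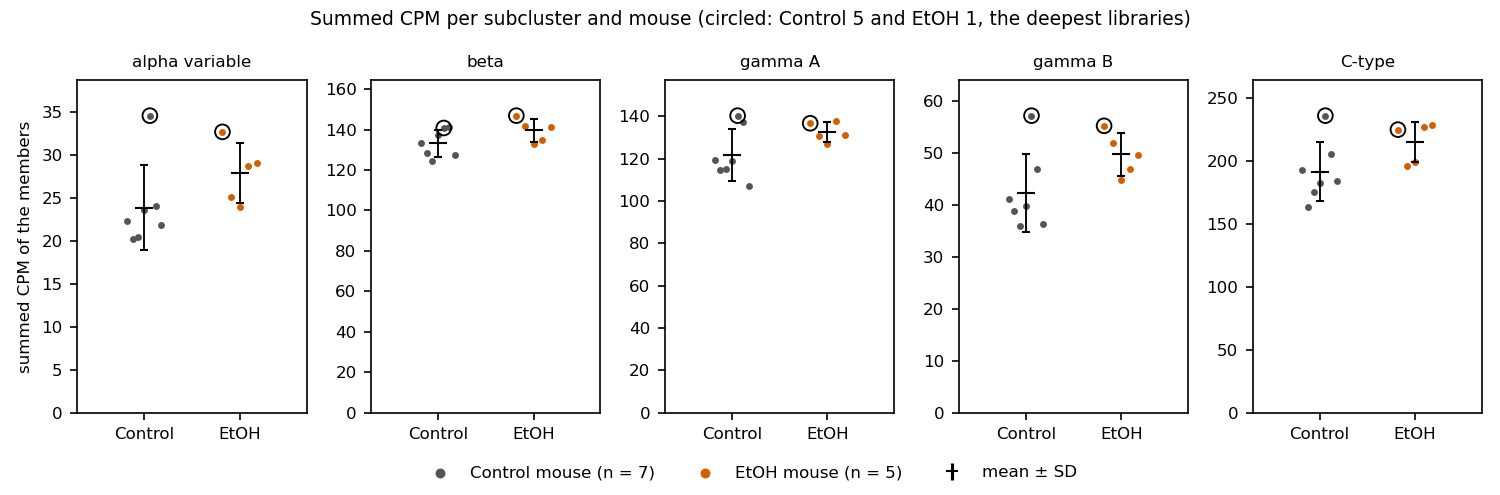
Summed CPM of the members of each subcluster in each mouse (grey, 7 Control; orange, 5 EtOH; black, mean ± SD; axes linear from 0), with the deepest libraries circled. Control 5 is the highest mouse of all in the alpha variable, gamma A, gamma B and C-type panels, at 34.5 CPM for alpha variable genes, and EtOH 1 is the highest in the beta panel.

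Beta genes made up 26.1% ± 1.496 of the clustered protocadherin counts in Control and 24.7% ± 0.94 in EtOH, C-type genes 37.3% ± 1.27 and 38.1% ± 1.44, and gamma A genes 23.8% ± 0.86 and 23.5% ± 0.66. Gamma B genes made up 8.21% ± 0.62 and 8.81% ± 0.57, and alpha variable genes 4.61% ± 0.49 and 4.92% ± 0.38. Each pair of ranges overlapped. Within the C-type, Pcdhac2 made up 5.76% ± 0.46 in Control and 7.10% ± 0.48 in EtOH, with every EtOH mouse above every control. Pcdhgc5 went the other way, from 23.8% ± 0.62 to 22.3% ± 1.26, with overlapping ranges. Both were picked after the values were seen, and shares were not tested.

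Genes that act on promoter choice were listed separately: CTCF, cohesin and its loaders and releasers, DNA methyltransferases, TET enzymes and the repressors SMCHD1, SETDB1 and WIZ. Of 20 tested, 6 rose and 0 fell (30% higher, beside 12.1% of all genes), with a median log2 fold change of 0.15. Tet2, which oxidises methylcytosine, rose from 44.6 ± 8.66 to 59.7 ± 2.84 CPM (log2 fold change 0.42, adjusted p = 0.0081). The other 5 changed by less: Nipbl by 0.23, Wiz by 0.21, Pds5b and Mau2 by 0.20 each and Setdb1 by 0.19 on the log2 scale. Ctcf (68.8 ± 3.79 and 71.9 ± 4.91 CPM, log2 fold change 0.06, adjusted p = 0.441), Rad21 (0.06, adjusted p = 0.441) and Smchd1 (0.15, adjusted p = 0.151) did not pass. The count of 6 was not stable to single mice: it was 2 without Control 2, Control 3, Control 4, EtOH 2 or EtOH 5, and 3 without Control 1 or EtOH 3. In the fits with a count of 2, all genes that were higher ran from 1574 of 15986 (without Control 4) to 1833 of 16205 (without EtOH 2). There, 2 of 20 was near the share of all genes.

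Of 17 tested partners in signalling and cleavage, Cyfip1, a subunit of the WAVE complex, and Nlgn1, a synaptic adhesion protein, rose by 0.24 and 0.21 on the log2 scale, and the kinase gene Ptk2 fell by 0.22 (adjusted p of 0.0011, 0.0215 and 0.0301). These are 11.8% and 5.88% of the list, no more than the 12.1% and 11.6% of all genes tested, and the median over the list was 0.01. The lower call changed with single mice: 0 of the list were lower without Control 1, Control 3 or Control 4, or without EtOH 1, EtOH 3, EtOH 4 or EtOH 5, whereas 3 were lower without Control 5 and 2 without EtOH 2. Without EtOH 3, 1 of the list was higher.

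The nonclustered protocadherins are solitary genes outside the clusters with cytoplasmic tails of their own. Of 11 tested, 6 rose and 1 fell (54.5% and 9.09%, beside 12.1% and 11.6% of all genes), and the median log2 fold change was 0.40, a difference from the clustered members that was not tested. Pcdh20 rose from 17.2 ± 3.23 to 43.9 ± 8.80 CPM (1.35 on the log2 scale), Pcdh19, mutated in an X-linked epilepsy, from 32.4 ± 4.16 to 71.9 ± 11.5 CPM (1.15), and Pcdh8 from 27.2 ± 2.52 to 48.9 ± 8.20 CPM (0.85). In these 3 every EtOH mouse lay above every control. Pcdh10 fell from 251 ± 24.6 to 198 ± 11.3 CPM, a log2 fold change of -0.34 (adjusted p = 0.0013). The striatum and hippocampus markers described above moved in the same comparison, and their part was not tested.

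Classical cadherins, the related adhesion genes without clusters of promoters, moved both ways: 4 of 14 rose and 3 fell (28.6% and 21.4%, beside 12.1% and 11.6% of all genes), with a median of 0.02. Cdh20 rose from 16.1 ± 2.57 to 24.3 ± 2.69 CPM (log2 fold change 0.59, adjusted p = 0.000589) and Cdh22 fell from 59.7 ± 4.99 to 34.6 ± 3.68 CPM (log2 fold change -0.78).

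**Figure D5:**
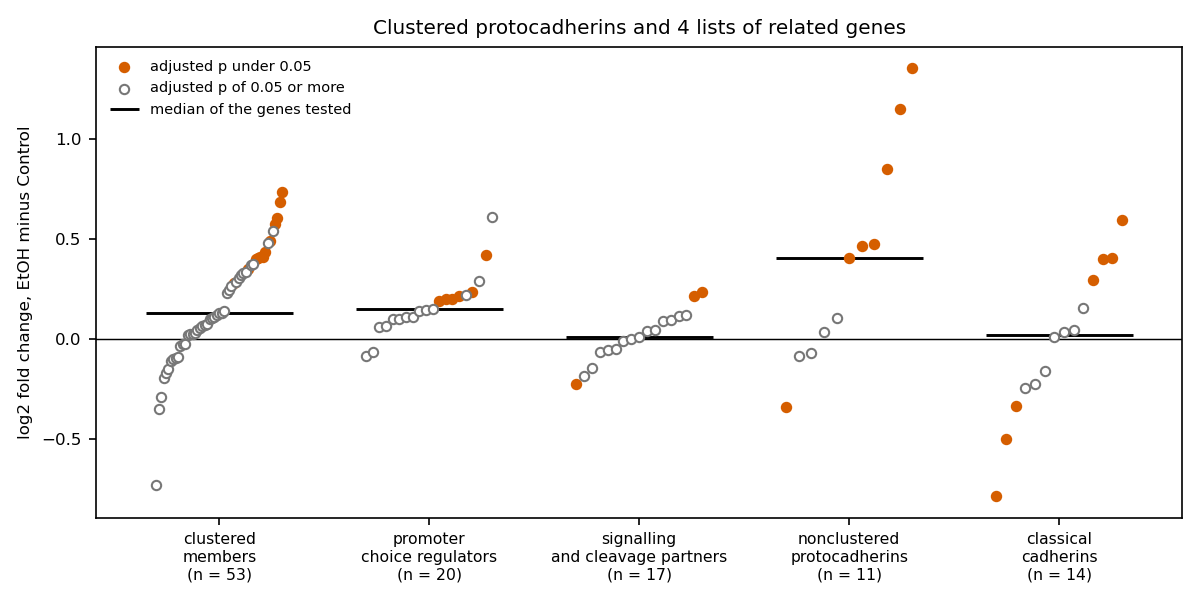
Log2 fold change (EtOH minus Control) of each tested gene, sorted within its list: the 53 clustered protocadherins and 4 lists of related genes; orange points have an adjusted p under 0.05 and black lines are medians. The medians are 0.13 for the clustered members, 0.15 for promoter choice regulators, 0.01 for signalling and cleavage partners, 0.40 for nonclustered protocadherins and 0.02 for classical cadherins.

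Genes around and between the clusters were set beside the members. Taf7, a general transcription factor gene that lies between the beta and gamma clusters (37773251 to 37777279), was at 5.18 CPM in Control and 5.00 CPM in EtOH, with a log2 fold change of -0.05 (SE 0.12, adjusted p = 0.798). Diaph1, the tested gene next to the gamma cluster, had a fold change of 0.13 (adjusted p = 0.172), and the pseudogene Gm6756, the nearest tested gene upstream of the alpha cluster, one of 0.63 (adjusted p = 0.0835) at a level under 1 CPM. Of the 28 tested neighbours up to 500000 bases from the ends of the clusters or between them, 3 were higher and 3 lower (beside 12.1% and 11.6% of all genes), with a median log2 fold change of -0.06. Among the 3 lower ones E230025N22Rik had the smallest adjusted p (0.000393), with 0.532 ± 0.24 CPM in Control and a mean below the detection floor in EtOH (0.0368 CPM), so that no fold is given. Among the 3 higher ones was Pcdh1, a nonclustered protocadherin (log2 fold change 0.40, adjusted p = 0.0023).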

How the data were processed

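Cortex RNA of 12 mice (7 Control, 5 EtOH) was sequenced by BGI. The authors checked reads with FastQC 0.11.9, aligned them with STAR to GRCm39 and counted them with featureCounts; they compared the groups with DESeq2. They deposited a table of expected counts per gene symbol (estimated counts, not normalized), in which 61 symbols, 0 of them members, held values that were not whole. Strand, shared exon and multi-mapping settings are not given in the sources used here. Between 71.0% and 75.4% of values from 1 to 20 were even numbers. If both ends of a pair were counted, which was not tested, the detection floor and mean counts rest on fewer independent fragments than their size. All columns were matched to mice by name (0 unmatched). Total counts, 31768079 to 42183031, place 3 counts at no more than 0.0962 CPM.

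Counts were rounded to whole numbers, filtered with filterByExpr, scaled with TMM and tested with edgeR 4.0.16 (glmQLFit and glmQLFTest; R 4.3.3) without covariates over 16059 genes. The SE is the fold change divided by the square root of F. The fits were also run on simulated counts, with the outcome not reported here. Members and gene lists were chosen with earlier results of these data known. Values were given for the C-type members, each member with an adjusted p under 0.05, and the 3 most abundant members of each subcluster; of related lists, for genes passing both the adjusted p of 0.05 and a change of 0.5 on the log2 scale in either direction, plus Ctcf, Smchd1 and Rad21. Others that are named, with the blocks of beta genes and the neighbours singled out, were chosen after their values were seen. Positions are from Gencode M39, a later annotation than the authors' release of the same build. Alternatives were DESeq2 1.42.0, limma voom (limma 3.58.1), 2 other scalings, 2 other filters, the replicate number as a block, each mouse left out in turn and, added after the data were seen, both deepest libraries left out and counts halved.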

Additional observations from a re-analysis of the deposited data

Results flagged for a closer look

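A mouse set apart from the rest of its group by more than Dixon's 95% critical value was looked for in 82 sets of values, of which 8 showed one; chance alone gives about 1 in 20, or 4.1. In Control 5, the summed level of alpha variable genes was 34.5 CPM (next control 23.98), Pcdha9 was at 4.35 CPM (next 2.76), Pcdhb2 at 3.66 CPM (next 2.18) and Pcdhga12 at 17.5 CPM (next 14.4). Control 5 was also set apart by its total of 40690200 counts (rounded; next 32356900), as was EtOH 1 among the EtOH mice by 42183000 (next 33313200). In EtOH 3, Pcdhga3 was at 19.6 CPM (next EtOH mouse 16.8) and the choroid plexus markers summed to 985 CPM (next 275).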

How the results depend on the processing

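All 12 members called higher were also called with DESeq2, limma voom, relative log expression or upper quartile factors, both other filters and halved counts, with Pcdhb16 as a 13th in all of these but relative log expression and the filter of at least 1 count. Leaving out 1 mouse gave 11 to 16 members higher and 0 to 1 lower (Pcdha8 without Control 5, Pcdhb8 without EtOH 2), or 4 to 6 higher and 0 to 1 lower past a log2 fold change of 0.5. It gave 2 to 7 promoter choice regulators higher, and 1 to 2 signalling and cleavage partners higher and 0 to 3 lower. Without both deepest libraries 15 members were called, 11 of the 12 among them (not Pcdhb4), and 1, Pcdhga6, was lower, as were 2 signalling and cleavage partners. The log2 fold change of Pcdha12 (-0.02) ran from -0.13 to 0.13 when 1 mouse was left out, turning positive without Control 5, Control 7, EtOH 2 or EtOH 3, and was 0.031 without both deepest libraries. The causes were not tested. The replicate numbers only name mice: deviations of same-numbered mice correlated between -0.108 and 0.0182, and 0 of 5 numbers correlated best with their own. With the replicate number as a block, 9 members were called, 8 of them shared with the 12 (Pcdhb16 was added; Pcdha9, Pcdhb3, Pcdhb4 and Pcdhga1 had adjusted p from 0.0602 to 0.069), 2 were higher past a log2 fold change of 0.5, and 1 signalling and cleavage partner was higher. Alpha variable genes below 5 CPM rest on few counts.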
